A study of Mus musculus with 28 samples.

Results

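Immune checkpoint blockade (ICB) alone was compared with PBS in bulk RNAseq of AB1-HA tumors. The comparison took the 5 tumors labelled ICB and the 4 labelled PBS, 9 of the 28 tumors in the series, and every gene that passed a filter on low counts. AB1-HA is a mouse mesothelioma cell line that carries influenza hemagglutinin as a model antigen, and here 1 line stands for the disease. Female BALB/c.AusBP mice of 8 to 10 weeks received 500000 cells under the skin of the flank. Treatment began once a tumor had reached 20 to 25 mm2. ICB mice were given 100 µg of anti-CTLA-4 in 1 dose and 100 µg of anti-PD-L1 in each of 3 doses with 2 days between them, into the peritoneum. PBS mice were given PBS, and the labels name no control antibody. Whole tumors were taken 7 days after the first dose, so the RNA comes from tumor cells and from every other cell in the mass. The other 19 tumors had received 5-FU, cisplatin or a combination with ICB, and of these only the 5 tumors of 5-FU alone are compared here.

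CTLA-4 and PD-1 are receptors on T cells that restrain activation. CTLA-4 competes with CD28 for CD80 and CD86 on antigen-presenting cells, and PD-1 is engaged by PD-L1 (Cd274) and PD-L2 (Pdcd1lg2) on tumor and myeloid cells. Antibodies against CTLA-4 and PD-L1 remove these restraints. Activated T cells and NK cells release interferon gamma, which acts through IRF1 and raises antigen presentation, T cell-attracting chemokines and PD-L1 itself.

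Each of the 9 tumors had 26836269 to 33950805 estimated counts. PBS 1 and PBS 2 stood apart from PBS 3 and PBS 4. In PBS 1 and 2, genes with short transcripts were higher and genes with long transcripts lower, with a median log2 ratio to PBS 3 and 4 of 0.38 over genes whose longest transcript has up to 1000 bases and of -0.62 over those above 8000 bases. PBS 1 also held 65594 CPM (counts scaled to the library size) of CT010467.1, annotated as ribosomal RNA, against 435 to 1836 in the other PBS tumors. The median log2 fold change of ICB against PBS ran with transcript length too, from -0.43 to 0.44 over the same classes, and from -0.15 to 0.08 without PBS 1 and 2. Counts below are therefore also given without PBS 1 and 2, a choice made after the data were seen, in which 7.66% of genes were called higher and 3.91% lower; 2 PBS tumors also leave fewer calls to be made. ICB 3 had 3939 CPM of 12 skeletal muscle markers and ICB 2 had 513 CPM of keratinocyte markers, against 1.98 to 335 and 1.57 to 12.9 in the other tumors. Adipocyte and erythroid markers were also highest in ICB 3, at 323 and 222 CPM, against at most 120 and 103 CPM. Of the muscle markers 0 of 12 were differentially expressed, of the erythroid 0 of 5, of the keratinocyte 2 of 6 tested and of the adipocyte 1 of 8, and the medians of all 4 lists changed sign without ICB 2 and 3. The part of these tissues in other results was not tested.

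**Figure D1:**
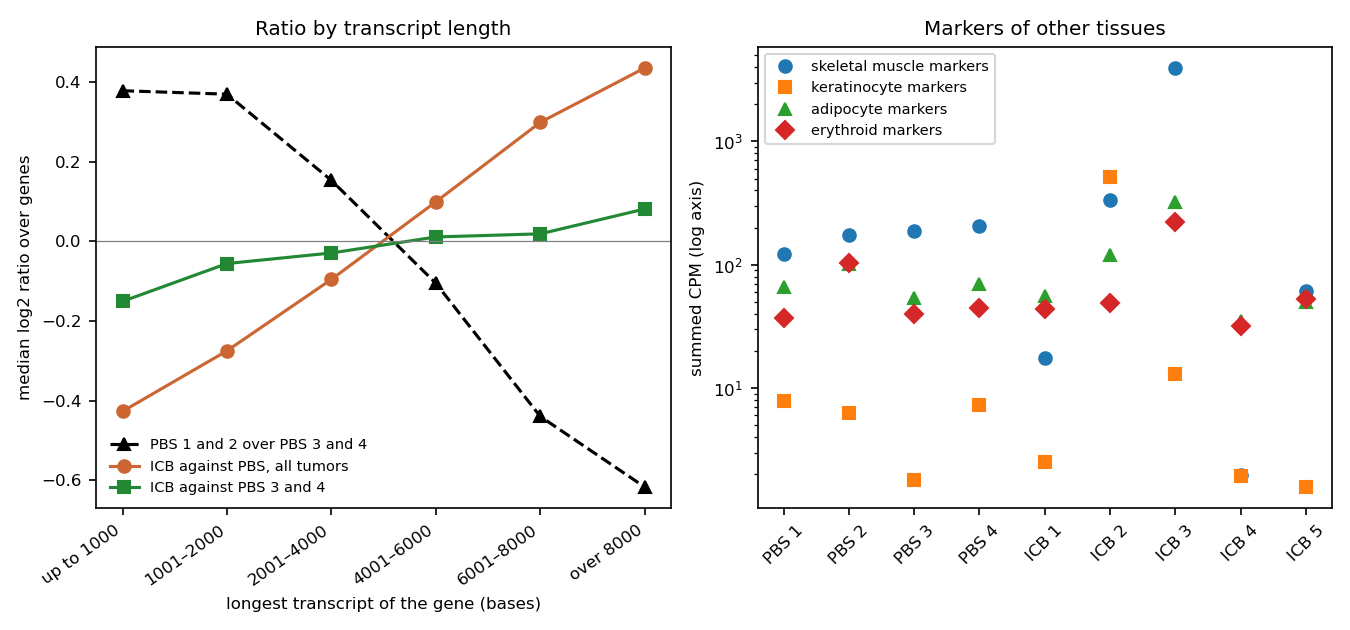
Left, the median log2 ratio over the genes of 6 classes of transcript length, for PBS 1 and 2 over PBS 3 and 4 (triangles), for ICB against all PBS tumors (circles) and for ICB against PBS 3 and 4 (squares). Right, the summed CPM of the tested markers of 4 other tissues in each of the 9 tumors on a log axis, where ICB 3 is high for muscle at 3939 and ICB 2 for keratinocytes at 513.

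Of 17916 genes tested, 37.8% differed: 3396 (19%) were higher and 3375 (18.8%) lower in ICB tumors, with an edgeR adjusted p-value below 0.05 and an absolute log2 fold change above 0.5. These are the differentially expressed genes (DEGs) below. Values after ± are standard errors of log2 fold changes. An unadjusted p below 0.05 was reached by 9125 genes. Rises were larger than falls: 1199 of the higher DEGs had a log2 fold change over 2 and 101 of the lower ones one under -2, and the median was 1.64 over the higher and -0.87 over the lower DEGs. The ICB and PBS tumors did not overlap for 36.4% of all genes tested. The first principal component held 54.1% of the variance, with PBS tumors from -87.5 to -59.6 and ICB tumors from 9.21 to 97.9, ICB 4 lying nearest to PBS. Without PBS 1 and 2, 1451 genes were higher and 741 lower, and without ICB 2 and 3 these counts were 2051 (11.3%) and 1543 (8.49%).

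**Figure D2:**
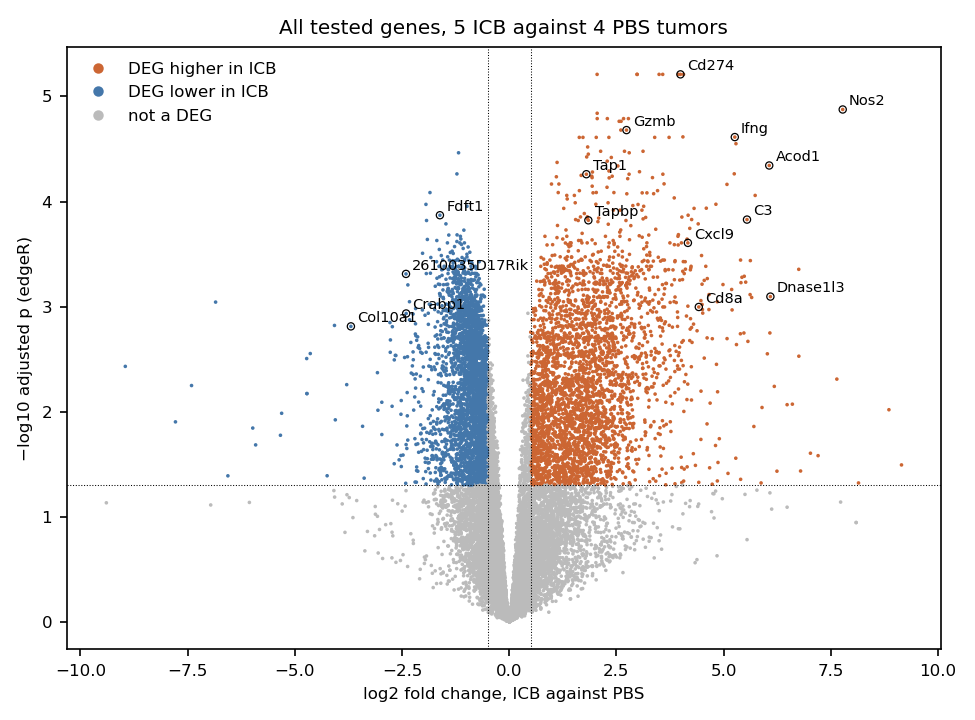
Each of the 17916 tested genes by its log2 fold change in 5 ICB against 4 PBS tumors and the negative log10 of its edgeR adjusted p-value, with dotted lines at the thresholds of 0.5 and 0.05. DEGs spread further to the right, where Nos2 lies at 7.78 and Acod1 at 6.07, than to the left, where Col10a1 lies at -3.69.

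The largest rise among well-counted DEGs whose groups did not overlap was that of Nos2, on chromosome 11 from 78920787 to 78960254 in GRCm38, which encodes the inducible nitric oxide synthase of activated macrophages. Nos2 was at 0.945, 0.811, 2.67 and 1.32 CPM in PBS tumors 1 to 4 and at 167, 460.3, 229.8, 272 and 464 CPM in ICB tumors 1 to 5. Every ICB tumor was far above every PBS tumor, with a log2 fold change of 7.78 ± 0.76 (edgeR adjusted p = 1.33e-05). Acod1, the enzyme that makes itaconate in macrophages, went from 1.97, 4.02, 4.25 and 2.08 CPM to 125, 237, 186, 170.5 and 316 CPM, a log2 fold change of 6.07 ± 0.71 (edgeR adjusted p = 4.54e-05). The other 8 of the 10 were H2-M2, a nonclassical MHC class I gene (6.76), Dnase1l3, a secreted DNase of myeloid cells (6.09), Retnla, a marker of alternatively activated macrophages (6.08), the serine protease cathepsin G gene Ctsg (5.66), Ly6i (5.63), the phosphatase gene Inpp5j (5.74), the glutamate transporter gene Slc17a6 (5.62) and Cd5l, a secreted macrophage protein. Cd5l had at most 3 counts in each PBS tumor, and is given by its levels, 0.0329 to 0.123 CPM in PBS and 0.630 to 13.5 CPM in ICB tumors. Retnla varied widely among the ICB tumors, from 4.83 CPM in ICB 4 to 211 CPM in ICB 3. Without PBS 1 and 2, H2-M2 (7.02, edgeR adjusted p = 0.0580) and Cd5l (edgeR adjusted p = 0.0512) were not called.

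The genes of the targets and their partners came next. Cd274, on chromosome 19 from 29367455 to 29388095, encodes PD-L1, the target of anti-PD-L1. It was at 9.94, 12.4, 12.3 and 12.1 CPM in PBS tumors and at 163, 261, 151, 157 and 201 CPM in ICB tumors. The lowest ICB tumor lay more than 10-fold above the highest PBS tumor, and the log2 fold change was 3.99 ± 0.35 (edgeR adjusted p = 6.16e-06). Pdcd1lg2, the gene of PD-L2, was at 1.56, 4.62, 1.52 and 1.20 CPM and 65.6, 176, 80.3, 38.3 and 109 CPM, a log2 fold change of 5.40 ± 0.84 (edgeR adjusted p = 0.000361). Pdcd1, which encodes PD-1 and lies on chromosome 1 from 94038305 to 94052553, rose from 3.00, 9.38, 3.62 and 2.96 CPM to 48.2, 52.4, 135, 41.02 and 84.5 CPM, a log2 fold change of 3.93 ± 0.94 (edgeR adjusted p = 0.00367). PBS 2 was the highest PBS tumor for all 3 genes. Ctla4, on chromosome 1 from 60887000 to 60915832, overlapped between the groups. Its values were 2.38, 7.55, 2.60 and 2.21 CPM in PBS tumors and 5.82, 10.3, 12.3, 5.64 and 10.00 CPM in ICB tumors, so that PBS 2 lay above ICB 1 and ICB 4. Its log2 fold change of 1.26 ± 0.57 (edgeR adjusted p = 0.0818) was not past the threshold. It was called higher under 4 of 20 alternative settings, which were DESeq2 in place of edgeR, a fit of the 2 groups alone, the cisplatin matrix (PBS and ICB tumors fitted with the cisplatin groups) and leaving out PBS 2, with adjusted p-values down to 0.0267 and, without PBS 2, a log2 fold change of 1.87. Cd28, whose product shares the ligands of CTLA-4, rose by 3.73, a call lost without PBS 1 and 2. Of these ligands, Cd86 rose by 2.62 while Cd80 had -0.12 (edgeR adjusted p = 0.591), with PBS tumors at 16.5 to 29.7 CPM and ICB tumors at 17.5 to 23.3 CPM. The sign of Cd80 turned without PBS 2, to 0.06. Of the 15 checkpoint and costimulatory receptors and ligands tested, 12 were higher DEGs, 7 without PBS 1 and 2, with a median log2 fold change of 2.62 against -0.03 over all genes. Besides those named, they included the inhibitory receptor genes Havcr2 (2.12), Lag3 (3.40) and Tigit (1.69) and Entpd1, an ectoenzyme gene of the adenosine pathway (2.81). The 3 that were not called were Ctla4, Cd80 and Tnfrsf4, the gene of OX40 (1.22).

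**Figure D3:**
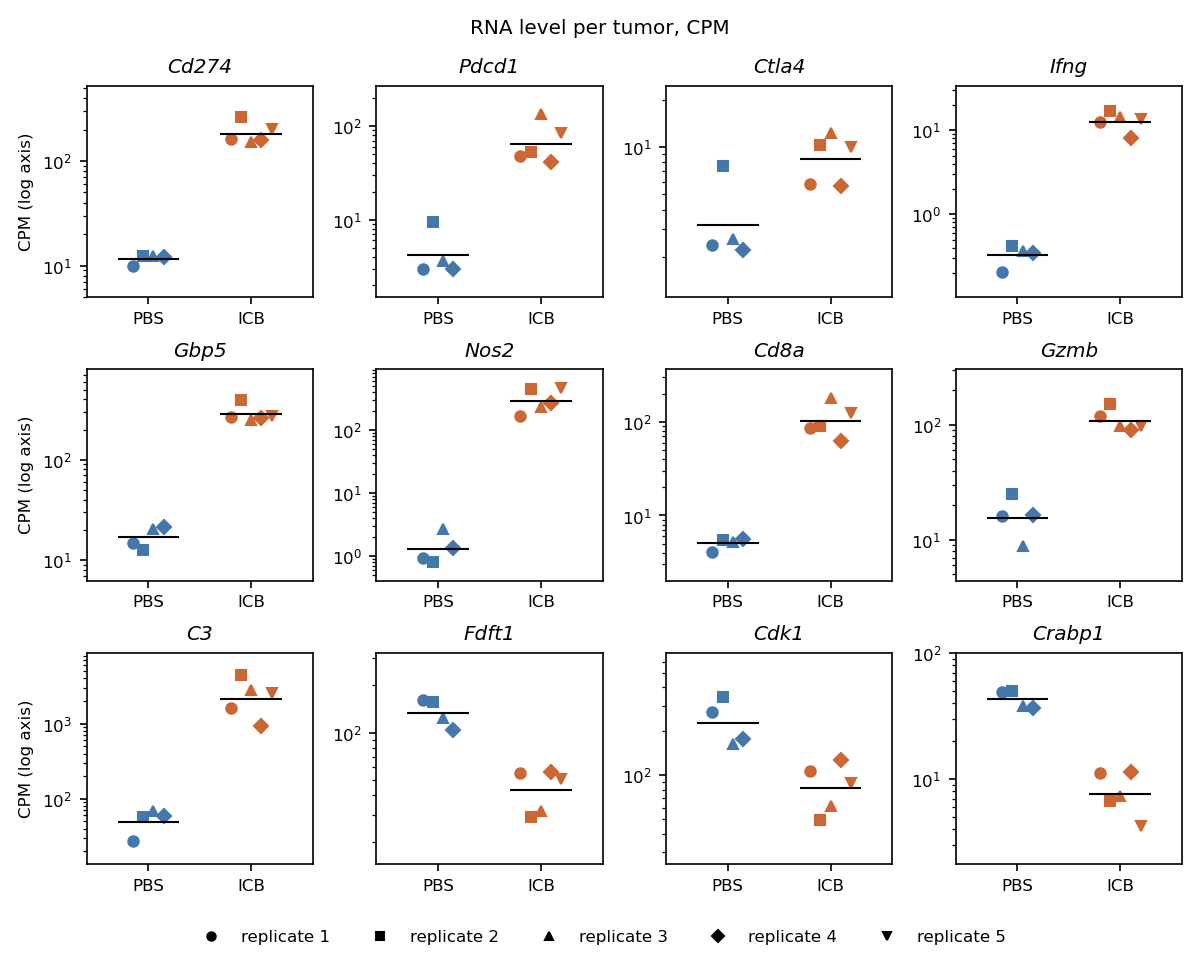
RNA of 12 genes in each tumor, in CPM on log axes, with 4 PBS and 5 ICB tumors, a marker shape for each replicate number (the numbers do not pair tumors) and a bar at the geometric mean. Ctla4 is the gene among them whose groups overlap, since PBS 2 at 7.55 CPM is above ICB 1 and ICB 4, while Cd274 and Nos2 lie wide apart.

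Interferon gamma and its response genes rose together. Ifng, on chromosome 10 from 118441046 to 118445892, was at 0.205, 0.423, 0.362 and 0.347 CPM in PBS tumors and at 12.5, 16.9, 14.3, 8.19 and 13.5 CPM in ICB tumors. The ICB tumors were all more than 10-fold higher, with a log2 fold change of 5.26 ± 0.57 (edgeR adjusted p = 2.44e-05). All 30 of the 30 interferon gamma response genes tested were higher DEGs, with a median log2 fold change of 2.66. They were also 30 of 30 without PBS 1 and 2 (median 2.56) and without ICB 2 and 3 (median 2.68). The transcription factor gene Irf1 went from 125 to 191 CPM in PBS tumors to 421 to 717 CPM in ICB tumors, a log2 fold change of 1.94 ± 0.24 (edgeR adjusted p = 7.15e-05). Guanylate-binding proteins, GTPases that attack the vacuoles of intracellular pathogens, gave some of the smallest p-values. Gbp5 was at 14.95, 12.5, 20.3 and 21.2 CPM in PBS tumors and at 265, 398, 247, 262 and 272 CPM in ICB tumors, a log2 fold change of 4.07 ± 0.38 (edgeR adjusted p = 6.16e-06). Gbp6 and Gbp9 rose by 2.98 and 2.05, and close copies of this family can share reads, so each member's own value is less certain. The chemokines that draw CXCR3-bearing T cells rose as well, with Cxcl9 at 49.4, 102, 53.8 and 49.6 CPM in PBS and 1196, 1500.0, 899, 771 and 1369 CPM in ICB tumors (log2 fold change 4.17), Cxcl10 with 2.61 and Cxcl11 with 3.12. The smallest change in the list was that of the uridine phosphorylase gene Upp1, 1.04.

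Sequence upstream of these genes is shown because 2 short motifs are known from interferon signaling, the gamma-activated site (GAS, searched as TTCNNNGAA) and the interferon-stimulated response element (ISRE, searched as GAAA, any 2 bases and GAAA again). Both were searched on both strands in the RefSeq promoter windows of GRCm38.p6, 250 bases before to 50 after each gene's start. Of the 30 response genes 17 had a window, and 11 (64.7%) of these held an ISRE and 7 (41.2%) a GAS. Over all 27025 genes with a window the shares were 3.99% and 9.55%. In the windows printed here, capitals mark the matches of either motif, and in Irgm1 the ISRE matches overlap in 1 run.
Gbp5, chr3:142496684-142496983, plus strand: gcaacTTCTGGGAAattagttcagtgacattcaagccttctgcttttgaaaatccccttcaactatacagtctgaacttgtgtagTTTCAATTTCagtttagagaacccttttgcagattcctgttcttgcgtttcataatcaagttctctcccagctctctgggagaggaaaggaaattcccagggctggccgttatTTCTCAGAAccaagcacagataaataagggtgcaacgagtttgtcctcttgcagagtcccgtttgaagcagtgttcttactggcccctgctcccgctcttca
Igtp, chr11:58199306-58199605, plus strand: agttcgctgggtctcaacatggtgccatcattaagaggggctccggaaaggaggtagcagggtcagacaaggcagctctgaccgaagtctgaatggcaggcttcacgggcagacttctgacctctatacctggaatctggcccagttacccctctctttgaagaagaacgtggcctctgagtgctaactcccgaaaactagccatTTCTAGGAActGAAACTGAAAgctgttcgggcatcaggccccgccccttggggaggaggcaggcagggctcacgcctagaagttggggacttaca
Cxcl10, chr5:92348840-92349139, minus strand: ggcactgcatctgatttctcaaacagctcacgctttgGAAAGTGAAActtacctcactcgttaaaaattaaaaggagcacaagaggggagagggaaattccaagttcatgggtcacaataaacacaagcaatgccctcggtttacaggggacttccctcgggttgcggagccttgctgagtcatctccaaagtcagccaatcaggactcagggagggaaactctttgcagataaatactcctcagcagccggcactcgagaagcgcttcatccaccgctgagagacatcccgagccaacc
Irgm1, chr11:48871371-48871670, minus strand: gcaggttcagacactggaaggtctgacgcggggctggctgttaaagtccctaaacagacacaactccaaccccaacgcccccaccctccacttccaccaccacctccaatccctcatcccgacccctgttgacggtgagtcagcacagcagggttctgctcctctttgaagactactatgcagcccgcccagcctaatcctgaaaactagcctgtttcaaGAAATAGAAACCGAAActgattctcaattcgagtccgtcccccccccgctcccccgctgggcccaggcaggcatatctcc
The Gbp5 window held GAS matches at -245 and -52 and an ISRE match at -165, counted in bases from the gene start. Igtp and Irgm1 encode immunity-related GTPases, and rose by 2.57 and 1.85. The ISRE matches lay at -34 in Igtp, beside a GAS at -45, at -30 and -24 in Irgm1 and at -213 in Cxcl10. The window of Cd274 held neither motif, which says only that these letters do not occur in it. These matches describe the sequence and no binding was measured.

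Fewer of the genes induced mainly by type I interferons were called. Of 22 tested, 10 were higher DEGs and 0 lower, with a median log2 fold change of 0.63, and 5 were higher without PBS 1 and 2, 6 without ICB 2 and 3 or with all 6 groups in the fit and 5 in the cisplatin matrix. Stat2, a transcription factor gene of this pathway, rose from 43.8 to 79.5 CPM in PBS to 123 to 228 CPM in ICB tumors, with a log2 fold change of 1.32 ± 0.19 (edgeR adjusted p = 0.000187). The RNA sensor gene Ifih1 (1.15) and the antiviral genes Ifit2 (1.25), Oas3 (1.38) and Ifi44 (0.90) rose too. Not called were Isg15 (0.44), Ifit1 (0.14), Irf7 (0.55) and the negative regulator Usp18 (-0.24), among others. Of these genes 17 had a promoter window, and 9 (52.9%) of the 17 genes held an ISRE. Ifnb1, the gene of interferon beta, had at most 3 counts in any of the 9 tumors and was not tested.

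Most genes of both arms of antigen presentation rose. MHC class I molecules show peptides from inside the cell to CD8+ T cells. Of 15 class I genes, 12 were higher DEGs (median 1.12), and 9 without PBS 1 and 2. Tap1, a subunit of the transporter that brings peptides into the endoplasmic reticulum, was at 166, 160.3, 143 and 172 CPM in PBS tumors and 479.9, 640.1, 548, 551 and 573 CPM in ICB tumors, a log2 fold change of 1.80 ± 0.22 (edgeR adjusted p = 5.50e-05). The groups lay apart with little spread in each. Its partner Tap2 (1.64), the peptide-loading gene Tapbp (1.85), the peptide-trimming gene Erap1 (1.35), the heavy chain genes H2-K1 (1.24) and H2-D1 (1.22) and the immunoproteasome genes Psmb8 (1.12), Psmb9 (1.20) and Psmb10 (1.11) were among them. The general chaperones Calr (0.38), Canx (-0.07) and Pdia3 (0.22) were not called. MHC class II molecules present to CD4+ T cells on professional antigen-presenting cells, and 11 of 12 of these genes were higher DEGs, with a larger median of 2.79. Cd74, the invariant chain that guards the class II groove, was at 336, 805, 639 and 391 CPM in PBS tumors and 6305, 9589.5, 11855, 3297 and 10247 CPM in ICB tumors, with a log2 fold change of 3.93 ± 0.80 (edgeR adjusted p = 0.00154). ICB 4 was the lowest ICB tumor and still above PBS 2, the highest PBS tumor. H2-Aa rose by 3.76, the peptide-exchange gene H2-DMa by 2.76 and the protease gene Ctss by 2.80, whereas H2-Ob (1.95) was not called. Without PBS 1 and 2, 9 of the 12 were DEGs.

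T cell genes were higher in every ICB tumor. All 17 genes of the T cell receptor complex and its coreceptors were higher DEGs, with a median log2 fold change of 2.82, and in all 17 the groups did not overlap. Without PBS 1 and 2, 5 passed, with a median of 3.15, and without ICB 2 and 3, 10 passed. Cd8a, on chromosome 6 from 71373427 to 71379173, marks cytotoxic T cells. Its level was 4.03, 5.54, 5.24 and 5.58 CPM in PBS tumors and 85.9, 91.1, 182, 63.2 and 125 CPM in ICB tumors, a log2 fold change of 4.42 ± 0.84 (edgeR adjusted p = 0.00101). ICB 3 was highest and ICB 4 lowest of the ICB tumors. Cd4 rose by 2.47 ± 0.77 (edgeR adjusted p = 0.0161), and was not called without PBS 1 and 2 (2.42, edgeR adjusted p = 0.132) or without ICB 2 and 3 (1.87, edgeR adjusted p = 0.109). The signaling gene Zap70 (2.82) and the CD3 chain gene Cd3e (3.51) rose with them. Ptprc, which encodes CD45 of all leukocytes and was chosen after its values were seen, had a log2 fold change of 2.00 ± 0.44 (edgeR adjusted p = 0.00231). In whole-tumor RNA, more cells of a type and more RNA per cell cannot be told apart.

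The effector genes of killer cells rose in full: 16 of 16 were higher DEGs, with a median log2 fold change of 3.08, and 14 passed without PBS 1 and 2. Gzmb, on chromosome 14 from 56258838 to 56262260, encodes granzyme B, which starts apoptosis in target cells, and stood at 16.1, 25.3, 8.83 and 16.4 CPM in PBS tumors and 118, 152, 97.4, 89.7 and 98.05 CPM in ICB tumors, a log2 fold change of 2.74 ± 0.29 (edgeR adjusted p = 2.09e-05). Prf1, the pore protein through which granzymes enter, was at 11.3, 11.9, 7.35 and 10.6 CPM and 97.8, 174, 130.1, 87.8 and 141 CPM, a log2 fold change of 3.61 ± 0.45 (edgeR adjusted p = 6.79e-05). Gzmf, a granzyme gene of the same cluster, was at 0.493, 10.02, 3.33 and 1.32 CPM in PBS and 119, 332, 56.2, 111 and 232 CPM in ICB tumors, with a log2 fold change of 5.48 ± 0.92 (edgeR adjusted p = 0.000515). PBS 2 was the highest PBS tumor for Gzmb and Gzmf. The genes Gzmc to Gzmg are near copies whose reads the counting could have split. Of 6 regulatory T cell markers 5 were higher DEGs, and 2 without PBS 1 and 2. Foxp3, their defining transcription factor, was at 2.30, 1.52, 4.55 and 4.85 CPM in PBS and 6.13, 16.3, 10.5, 5.43 and 10.03 CPM in ICB tumors, a log2 fold change of 1.55 ± 0.47 (edgeR adjusted p = 0.0147), which did not pass without PBS 1 or PBS 2 alone or without both (1.03, edgeR adjusted p = 0.202), nor without ICB 2 and 3 (1.17, edgeR adjusted p = 0.111), with all 6 groups in the fit or in the cisplatin matrix. The chemokine receptor gene Ccr8 (3.25), the Ikaros family genes Ikzf2 (2.05) and Ikzf4 (2.53) and the IL-2 receptor gene Il2ra (2.35) rose, and Capg (-0.10) was not called.

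Of 5 tested NK cell markers 3 were higher DEGs, and 2 without PBS 1 and 2. The 3 were the T-box genes Tbx21 (3.28) and Eomes (1.42), which T cells express as well, and the receptor gene Klre1 (1.66). The defining NK receptors Ncr1 (0.56) and Klrb1c (1.03, edgeR adjusted p = 0.115) were not called, and Klra4 and Klra8 had too few counts to be tested. Of 10 B cell and plasma cell markers, 0 were DEGs. Cd79a was at 11.4 to 15.03 CPM in PBS and 3.08 to 7.61 CPM in ICB tumors (-1.37, edgeR adjusted p = 0.226), while Ms4a1, the gene of CD20, was at 0.252 to 0.635 CPM and 0.270 to 5.24 CPM (2.04, edgeR adjusted p = 0.293), with ICB 3 highest. With only the 2 groups in the fit or in the cisplatin matrix Cd79a was called lower (edgeR adjusted p down to 0.00355), and with only the 2 groups Ms4a1 was called higher (edgeR adjusted p = 0.0492).

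Macrophage genes rose throughout. All 15 macrophage markers were higher DEGs, 12 without PBS 1 and 2 and 10 without ICB 2 and 3, with a median log2 fold change of 1.79. Their summed level was 1654 to 2801 CPM in PBS and 3973 to 10539 CPM in ICB tumors. Mertk, a receptor for the uptake of dead cells, was at 7.52, 8.57, 13.01 and 9.20 CPM in PBS and 31.6, 45.8, 59.8, 28.9 and 61.2 CPM in ICB tumors, with a log2 fold change of 2.25 ± 0.32 (edgeR adjusted p = 0.000214). The scavenger receptor gene Msr1 (1.44), the mannose receptor gene Mrc1 (1.79) and the complement gene C1qc (2.31) rose as well. Of 10 enzymes of arginine, tryptophan and itaconate metabolism, 8 were higher and 1 lower, 7 and 1 without PBS 1 and 2, with a median of 3.08. Beside Nos2 and Acod1, the tryptophan-degrading Ido1 was at 0.205, 0.423, 0.264 and 0.158 CPM in PBS and 4.87, 3.73, 4.85, 6.60 and 6.41 CPM in ICB tumors, a log2 fold change of 4.31 ± 0.57 (edgeR adjusted p = 0.000116). Ido2, which acts on the same substrate, rose by 3.94. Odc1, which makes polyamines from ornithine, fell by 1.26.

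Other myeloid markers were mixed. Of 7 monocyte markers 3 were higher DEGs, Chil3 (4.99), F13a1 (2.25) and Ly6c2 (2.22), and 1 without PBS 1 and 2, while the monocyte chemokine receptor gene Ccr2 was at 79.1 to 190.4 CPM in PBS and 119 to 306 CPM in ICB tumors (0.88, edgeR adjusted p = 0.127). The monocyte count was 1 without ICB 2 and 3 and 5, with Ccr2 called, with only the 2 groups in the fit, and Ly6c2 was not called without PBS 2. Of 7 tested neutrophil markers 3 were higher DEGs, and 4 without PBS 1 and 2, 6 with DESeq2 and 5 in the cisplatin matrix. Csf3r, the G-CSF receptor gene, was at 7.19, 8.04, 5.63 and 7.66 CPM in PBS and 75.9, 127, 114, 48.4 and 103 CPM in ICB tumors, a log2 fold change of 3.72 ± 0.61 (edgeR adjusted p = 0.000445), and S100a8 rose by 2.40. The collagenase gene Mmp8 had at most 3 counts in each PBS tumor and reached 0.505 to 2.56 CPM in ICB tumors. The defining gene Ly6g had at most 6 counts in any of the 9 tumors, and with the granule genes Ngp and Camp it was not tested. Of 12 dendritic cell markers 6 were higher DEGs, 5 without PBS 1 and 2 and 3 without ICB 2 and 3, among them the cross-presenting cell marker Clec9a, at 1.40, 1.55, 1.28 and 1.13 CPM in PBS and 11.4, 14.2, 12.6, 10.1 and 14.8 CPM in ICB tumors, with a log2 fold change of 3.23 ± 0.50 (edgeR adjusted p = 0.000368). The integrin gene Itgax (4.23) and the transcription factor gene Batf3 (2.55, not called without ICB 2 and 3) rose too, and Sirpa rose by 1.80, whereas Flt3 (0.75), Xcr1 (1.52) and the migration receptor gene Ccr7 (1.84) were not called. Of 8 tested mast cell and eosinophil markers 4 were higher DEGs, Siglecf (3.03), Kit (2.01) and the mast cell proteases Cpa3 (1.92) and Cma1 (1.74), with 1 left without PBS 1 and 2 and 2 without ICB 2 and 3. Leaving out any 1 of PBS 1, PBS 3, PBS 4, ICB 2 and ICB 3 left 2 calls in this list, and leaving out ICB 4 gave 8.

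**Figure D4:**
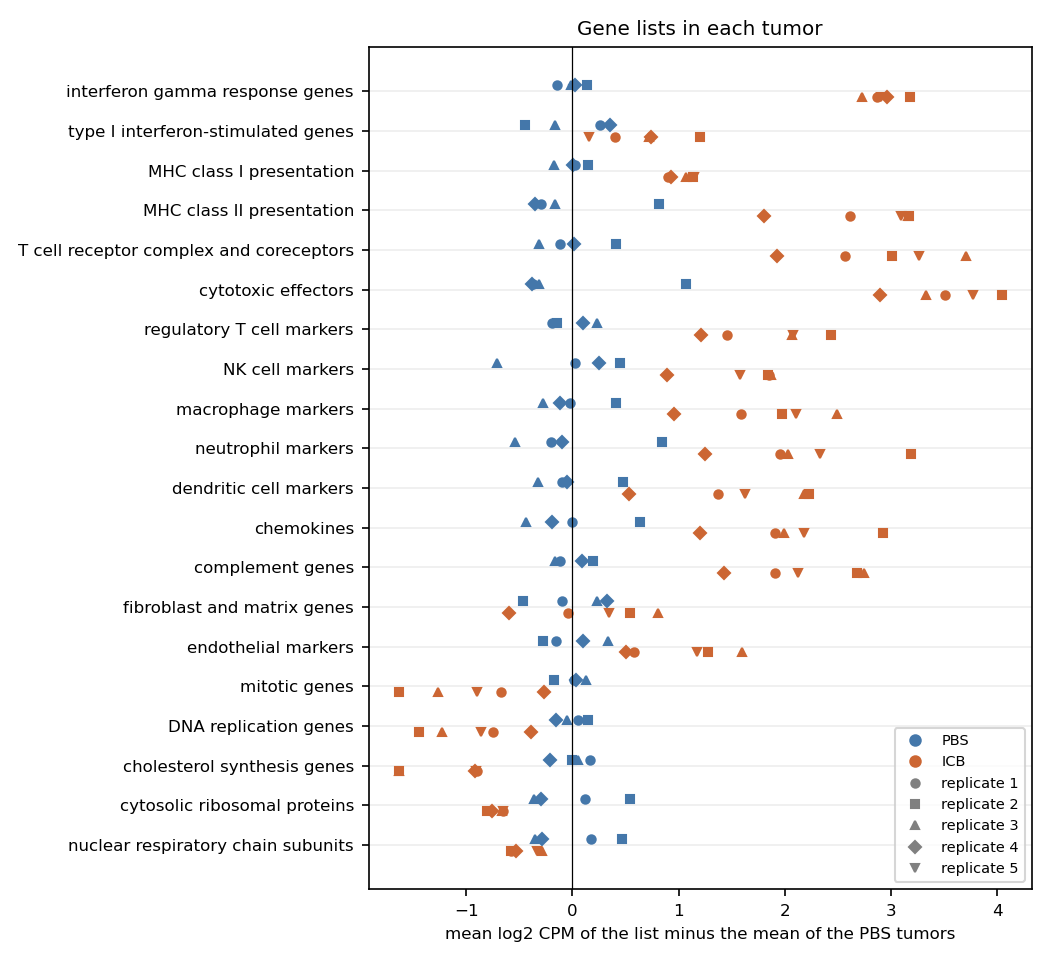
The mean log2 CPM of 20 gene lists in each tumor, less the mean of the 4 PBS tumors, with PBS tumors in blue, ICB tumors in orange and a marker shape for each replicate number. ICB tumors lie to the right for interferon gamma response, T cell and macrophage genes, ICB 4 is the ICB tumor nearest to PBS for T cell, cytotoxic and macrophage genes, and PBS and ICB tumors overlap for fibroblast and matrix genes.

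Chemokines, cytokines and complement were examined next. Of 26 chemokines 18 were higher and 1 lower, 15 and 1 without PBS 1 and 2, with a median log2 fold change of 2.16. Ccl3, which draws T cells and monocytes, was at 0.863, 0.705, 0.626 and 1.10 CPM in PBS and 13.6, 25.1, 22.2, 11.3 and 20.9 CPM in ICB tumors, a log2 fold change of 4.49 ± 0.68 (edgeR adjusted p = 0.000327), and Ccl5 rose by 4.55. The neutrophil-attracting Cxcl2 (3.19) and Cxcl3 (3.21) rose, Cxcl1 (1.66) was not called, and Cxcl14 fell by 1.29. Without PBS 1 and 2 or without ICB 2 and 3, Cxcl2 was not called (edgeR adjusted p = 0.0743 and 0.0667). Among 16 chemokine receptors 4 were higher DEGs, near the 19% over all genes, among them Cxcr6 (3.59), Ccr8 and Cxcr3 (2.45), all found on activated T cells (Cxcr3 was not called without PBS 1, PBS 3 or ICB 3), and 3 passed without PBS 1 and 2. The count of receptors was 7 with DESeq2, with its size factors, with library size alone, with 10 counts required in every tumor or with all 6 groups in the fit, 8 in the cisplatin matrix and 10 with only the 2 groups in the fit. Of 23 tested cytokines 11 were higher and 1 lower, and 8 and 1 without PBS 1 and 2, while 2 were lower without ICB 4, with DESeq2, with only the 2 groups in the fit or in the cisplatin matrix. Tnf, a central inflammatory cytokine, was at 1.89, 3.63, 1.48 and 1.67 CPM in PBS and 19.8, 40.1, 13.5, 17.5 and 20.8 CPM in ICB tumors, a log2 fold change of 3.36 ± 0.53 (edgeR adjusted p = 0.000369). Il1a rose by 4.50, its antagonist Il1rn by 3.10, Il1b by 2.16 and Il27 by 3.28, while Tgfb3 fell by 0.67 and Il6 (0.79) and Il10 (1.48) were not called. Complement genes were higher in 13 of 14, 12 without PBS 1 and 2, with a median of 2.40. C3, the central component, was at 27.03, 56.5, 67.7 and 58.8 CPM in PBS and 1615, 4408, 2769, 930.1 and 2565 CPM in ICB tumors, with a log2 fold change of 5.55 ± 0.76 (edgeR adjusted p = 0.000149), and the early components C4b (3.14), C1ra (2.45) and C1s1 (2.61) rose. Cfd (0.59), which adipocytes make, was not called.

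Most genes of cell division were lower. Of 20 mitotic genes 13 were lower (6 without ICB 2 and 3) and 0 higher, with a median log2 fold change of -1.03. Cdk1, the kinase that drives entry into mitosis, was at 269.8, 345, 165 and 176 CPM in PBS tumors and 108, 49.6, 61.4, 128 and 89.2 CPM in ICB tumors, a log2 fold change of -1.45 ± 0.30 (edgeR adjusted p = 0.00175). The groups did not overlap, but PBS 1 and 2 were well above PBS 3 and 4, and without them it was -0.98 (edgeR adjusted p = 0.0687). Ccnb2 fell by 1.40, Ube2c by 1.27 and Birc5 by 1.25, and these were the 3 mitotic genes that were also lower without PBS 1 and 2, where the list's median was -0.95. The long genes Cenpe (-0.32), Cenpf (-0.29) and Mki67 (-0.27) were not called. Without PBS 1 and 2, Cenpe had -0.92 and Cenpf -0.86, again without a call. Of 21 DNA replication genes 17 were lower, with a median of -0.98, and 2 without PBS 1 and 2 (median -0.79) and 10 in the cisplatin matrix. The helicase subunit gene Mcm5 was at 245, 296, 191 and 194 CPM in PBS and 112, 77.7, 96.3, 149 and 117 CPM in ICB tumors, a log2 fold change of -1.07 ± 0.21 (edgeR adjusted p = 0.00110). The nucleotide synthesis genes Tk1 and Tyms fell by 1.53 and 1.22.

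Most cholesterol synthesis genes were lower. Of 18 genes of the pathway 16 were lower DEGs and 0 higher, with a median log2 fold change of -1.27. With PBS 1 and 2 left out 15 of 18 were lower (median -1.14), and without ICB 2 and 3, 12 (median -0.96). Fdft1, which makes squalene and so commits the pathway to sterols, was at 162, 157, 124 and 103 CPM in PBS and 54.9, 29.03, 31.7, 56.2 and 50.8 CPM in ICB tumors, a log2 fold change of -1.62 ± 0.22 (edgeR adjusted p = 0.000135). Cyp51, a demethylase of the sterol ring, was at 261, 295, 214 and 185 CPM and 97.8, 39.3, 46.98, 91.9 and 92.8 CPM, a log2 fold change of -1.69 ± 0.27 (edgeR adjusted p = 0.000374). ICB 2 and ICB 3 were the lowest tumors for both genes. Mevalonate kinase, Mvk, fell by 1.11 and Nsdhl by 1.27, while the regulator Srebf2 (-0.49) was not called with all tumors. In the set without PBS 1 and 2 the calls of Mvd and Dhcr7 were lost and Srebf2 was called lower (-0.77, edgeR adjusted p = 0.0253). The regulator binds sterol response elements, of which 1 form was searched as TCACNCCAC, on both strands. It was found in 1 of the 12 pathway genes with a window (8.33%, against 1.44% over all genes with one). This was Hmgcs1, whose product makes the precursor of mevalonate and whose RNA fell by 1.27. The window is printed with the match in capitals.
Hmgcs1, chr13:119690101-119690400, plus strand: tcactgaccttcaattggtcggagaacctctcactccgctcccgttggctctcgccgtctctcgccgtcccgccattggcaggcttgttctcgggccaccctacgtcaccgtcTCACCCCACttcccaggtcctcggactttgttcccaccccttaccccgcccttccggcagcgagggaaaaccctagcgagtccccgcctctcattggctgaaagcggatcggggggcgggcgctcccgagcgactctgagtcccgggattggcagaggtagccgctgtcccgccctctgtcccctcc

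The number of lower calls among genes of the ribosome and of respiration depended on the tumors and groups in the fit. Of 33 cytosolic ribosomal protein genes 24 were lower DEGs, with a median log2 fold change of -0.77, but 0 without PBS 1 and 2, where the median was -0.39. Rpl18 was at 1191, 1813, 793 and 800.1 CPM in PBS and 586, 523, 560.5, 557 and 559 CPM in ICB tumors, with PBS 2 far above PBS 3 and 4 (-1.04 with all tumors and -0.53 without PBS 1 and 2). Rpl8 had -0.90 and Rpsa -0.95 with all tumors. Ribosome biogenesis genes were lower in 14 of 19, with a median of -0.78, and in 3 without PBS 1 and 2, with a median of -0.74, and in 8 without ICB 2 and 3. The nucleolar genes Nhp2 and Fbl fell by 1.24 and 0.78, Rrp9 and Wdr12 by 1.07 and 0.91, and Myc by 0.79. Of 31 nuclear genes of the respiratory chain 15 were lower, with a median of -0.49, and 1 without PBS 1 and 2, where the median was -0.17. That gene was Ndufa4, at 189, 247, 104 and 121 CPM in PBS and 70.4, 55.1, 81.6, 70.6 and 76.2 CPM in ICB tumors, with a log2 fold change of -1.22 ± 0.23 (edgeR adjusted p = 0.000878), and it was not called with all 6 groups in the fit or in the cisplatin matrix (edgeR adjusted p up to 0.109). Without PBS 1 and 2 Ndufa4 had -0.68 (edgeR adjusted p = 0.0434). Ndufs1 (-0.59), Ndufv1 (-0.61) and Uqcrc1 (-0.53), subunits of respiratory complexes, were DEGs with all tumors but not without PBS 1 and 2. Leaving out PBS 2 alone lowered the calls to 10 ribosomal protein genes and 3 respiratory chain genes, and leaving out ICB 2 and 3 lowered them to 5 and 5. With every PBS and ICB tumor kept, they were 2 and 4 with all 6 groups in the fit and 0 and 0 in the cisplatin matrix. The respiratory chain calls also fell to 8 without ICB 2 and without the low-count filter.

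**Figure D5:**
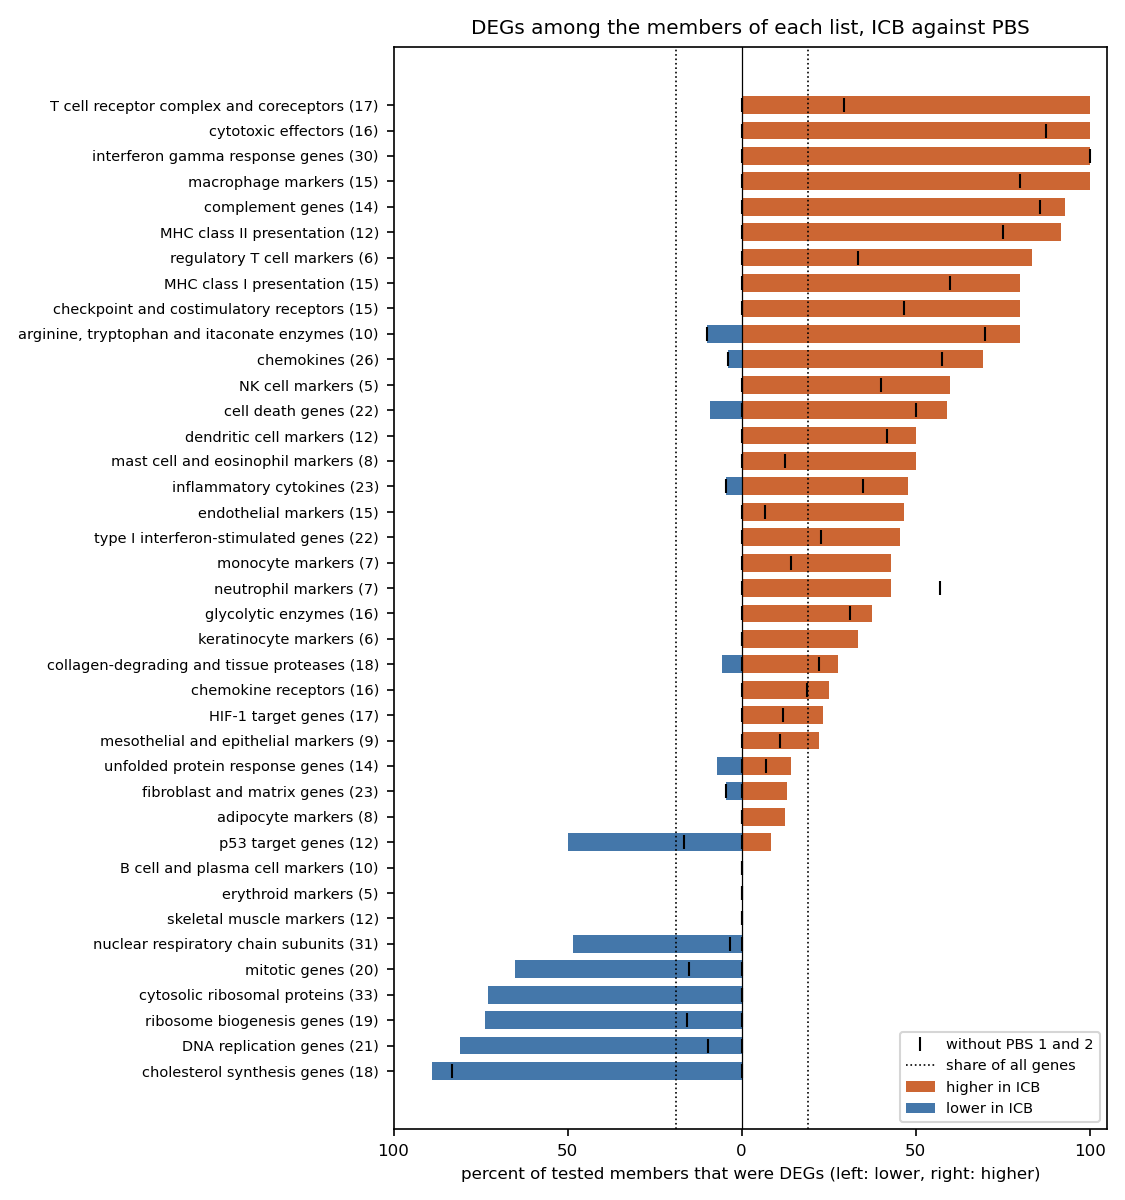
The percentage of tested members (number in brackets) that were DEGs in 39 lists, higher in ICB to the right and lower to the left, with dotted lines at the shares over all genes (19% and 18.8%) and ticks at the shares without PBS 1 and 2. The tick stays at the end of the bar for interferon gamma response genes (30 of 30), close to it for cholesterol synthesis genes, and falls to 0 for cytosolic ribosomal proteins.

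The 10 largest falls among well-counted DEGs without overlap began with Col10a1, a collagen of hypertrophic cartilage, at 10.1, 23.5, 27.5 and 6.81 CPM in PBS and 1.10, 0.323, 0.699, 3.63 and 0.769 CPM in ICB tumors. All ICB tumors were lower, with a log2 fold change of -3.69 ± 0.76 (edgeR adjusted p = 0.00154). Crabp1, which binds retinoic acid in the cytoplasm, was at 48.7, 50.4, 38.1 and 36.5 CPM and 11.2, 6.68, 7.38, 11.5 and 4.25 CPM, a log2 fold change of -2.40 ± 0.47 (edgeR adjusted p = 0.00116). The others were the growth factor gene Ptn (-2.38), Gas2 of the cytoskeleton (-2.33), Gchfr, whose product regulates GTP cyclohydrolase (-2.36), Baalc (-2.24) and the gene models 2610035D17Rik (-2.41), Gm37214 (-2.73), Gm12953 (-2.38) and Gm47547 (-2.24). Without PBS 1 and 2, Ptn (-2.13, edgeR adjusted p = 0.0906) and Gm12953 (-1.07, edgeR adjusted p = 0.273) were not called. Both calls were also lost without ICB 2 and 3 (edgeR adjusted p = 0.0565 for Ptn and 0.0616 for Gm12953), and that of Gm12953 with all 6 groups in the fit and in the cisplatin matrix.

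Markers of stroma and of tumor identity were examined next. Of 23 fibroblast and matrix genes 3 were higher (Thy1, Loxl2 and Lox) and 1 lower, under the background shares, and 0 and 1 without PBS 1 and 2. Without PBS 2 and without ICB 3, 4 and 2 of them were lower. With only the 2 groups in the fit or in the cisplatin matrix 5 were higher, and the list's median of -0.02 changed sign under 11 of 20 alternative settings. Sparc, a secreted matrix glycoprotein, was at 2072, 2258, 1742 and 1701 CPM in PBS and 925, 856, 1351, 701 and 991 CPM in ICB tumors, a log2 fold change of -1.01 ± 0.18 (edgeR adjusted p = 0.000742), and of -0.85 without PBS 1 and 2. Thy1, also a T cell gene in mice, rose by 2.10, and the collagen-crosslinking enzymes Loxl2 and Lox by 1.84 and 1.29, with ICB 4 inside the PBS range for both. The calls of all 3 were lost without PBS 1 and 2, and those of Loxl2 and Lox also without ICB 2 and 3. Of 15 endothelial markers 7 were higher, 1 without PBS 1 and 2 and 2 without ICB 2 and 3. They included the VEGF receptor gene Flt1 (1.47), Eng (1.81), Pecam1 (1.38) and Robo4 (1.27). Leaving out PBS 1, PBS 2 or ICB 3 gave 4, 3 and 4 calls. Of 9 tested mesothelial and epithelial markers 2 were higher, a share near the 19% over all genes, and 1 without PBS 1 and 2. They were Wt1 (3.03) at 0 to 0.165 CPM in PBS and 0.390 to 1.97 CPM in ICB tumors, and Cdh1 (1.17), whose call was lost under 12 of 20 alternative settings, each left-out PBS tumor and ICB 2 among them. Msln, the mesothelin gene that marks mesothelial cells and mesothelioma, was at 331, 373, 264 and 257 CPM in PBS and 123, 53.5, 56.5, 213 and 92.6 CPM in ICB tumors. All ICB tumors were lower, but the log2 fold change of -1.51 ± 0.76 (edgeR adjusted p = 0.117) was not past the threshold. With only the 2 groups in the fit and in the cisplatin matrix Msln was called lower (edgeR adjusted p down to 0.0103), and up to 3 markers of this list were. Of the markers of the labelled tumor type Msln was thus detected in every tumor, whereas Upk3b, Upk1b, Lrrn4, Krt18 and Muc16 had at most 10 counts in any tumor and were not tested, and Krt8 was at 0.977 to 3.43 CPM in PBS tumors. The 9 tested markers together, Msln included, summed to 328 to 509 CPM in PBS and 157 to 303 CPM in ICB tumors.

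Of 16 glycolytic enzymes and transporters 6 were higher and 0 lower (1 lower without PBS 3, PBS 4 or ICB 4), 5 higher without PBS 1 and 2, with a median of 0.24. Pfkfb3, which makes the activator of phosphofructokinase, was at 8.83, 8.22, 12.8 and 11.8 CPM in PBS and 80.3, 122, 114, 71.03 and 111 CPM in ICB tumors, with a log2 fold change of 3.26 ± 0.46 (edgeR adjusted p = 0.000209), and the lactate exporter gene Slc16a3 rose by 2.72, Pfkp by 1.31 and the glucose transporter gene Slc2a1 by 1.29. The hexokinase genes Hk2 (2.03) and Hk1 (0.86) rose too, Hk1 without a call (0.47) when PBS 1 and 2 were left out. Other enzymes such as Gapdh (-0.08), Ldha (-0.30) and Eno1 (-0.20) were not called. Of 17 HIF-1 targets 4 were higher, a share near the 19% over all genes. They were Slc2a1, Ndrg1 (1.13), P4ha2 (0.88) and Ero1l (0.56), of which 2 passed without PBS 1 and 2, while Vegfa (0.57), Car9 (-0.20) and Pdk1 (-0.35) were not called. Among 22 cell death genes 13 were higher and 2 lower, and 11 and 0 without PBS 1 and 2. Zbp1, a nucleic acid sensor of necroptosis, was at 74.3, 73.5, 59.1 and 77.6 CPM in PBS and 229, 278, 192, 231 and 175 CPM in ICB tumors, a log2 fold change of 1.64 ± 0.18 (edgeR adjusted p = 2.45e-05). The death ligand gene Tnfsf10 (2.07), Fas (1.88) and Ripk3 (1.21) rose, and Bax (-0.68) and Gsdme (-0.89) were lower. Of 12 p53 targets 6 were lower, Phlda3 (-1.15), Plk2 (-1.16), Ccng1 (-0.84) and Eda2r (-1.17) among them, and 1 was higher, with 2 lower and 0 higher without PBS 1 and 2 and the same counts without ICB 2 and 3. The higher call was also lost on leaving out any 1 of PBS 1 to 4, ICB 2, ICB 3 and ICB 5. Cdkn1a (0.07) was not called. Of 14 unfolded protein response genes fewer were called than the 19% higher and 18.8% lower over all genes: 2 were higher, Atf3 (2.93) and Sdf2l1 (0.82), and 1 lower, the asparagine synthetase gene Asns (-0.95), and the chaperone gene Hspa5 had -0.10 and Edem1 0.53 without a call. Edem1 was called higher under 5 of 20 alternative settings (adjusted p down to 0.0132), DESeq2, its size factors, library size alone, 10 counts in every tumor and only the 2 groups in the fit. The calls of Asns and Sdf2l1 were lost without most single tumors. Without PBS 1 and 2, 1 gene of this list was higher and 0 were lower. Of 18 proteases and inhibitors 5 were higher and 1 lower, against 19% and 18.8% over all genes, and 4 and 0 without PBS 1 and 2. Macrophage elastase, Mmp12, was at 5.50, 15.6, 4.12 and 6.33 CPM in PBS and 115, 520.0, 84.7, 79.8 and 253 CPM in ICB tumors, with a log2 fold change of 4.74 ± 1.02 (edgeR adjusted p = 0.00202), the inhibitor gene Timp3 rose by 1.82 and Mmp11 fell by 0.92. Without ICB 4, 9 of this list were higher, and without ICB 2 and 3, 3 were.

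To see where ICB alone differed from another single treatment, the ICB tumors were tested directly against the 5 tumors given 75 mg/kg of 5-FU, a fluoropyrimidine that blocks thymidylate synthesis. In the same fit, 1027 genes (5.73%) were higher and 508 (2.84%) lower in ICB than in 5-FU tumors. The genes with the largest differences were granzymes. Gzmf was at 0.483, 1.48, 1.24, 0.439 and 0.862 CPM in 5-FU tumors 1 to 5, with a log2 fold change of ICB against 5-FU of 7.58 ± 0.93 (edgeR adjusted p = 0.000180), and every ICB tumor was above every 5-FU tumor. Among well-counted DEGs without overlap, Gzmg (9.67) was ahead of Gzmf, and Gzmd (7.13), Gzme (6.88) and the cathepsin G gene Ctsg (5.19) followed. The limit on near copies named above holds for these granzymes. In ICB tumors 27 of the 30 interferon gamma response genes were higher than in 5-FU tumors (median 1.28), as were 9 of 16 cytotoxic effectors, 14 of 16 glycolytic enzymes, 11 of 17 HIF-1 targets, 5 of 7 neutrophil markers and 6 of 10 enzymes of arginine, tryptophan and itaconate. The 5-FU tumors were also below the PBS tumors for HIF-1 targets and glycolytic enzymes. The mean log2 CPM of HIF-1 targets was 4.35 to 4.64 in 5-FU, 5.18 to 5.71 in PBS and 5.36 to 5.97 in ICB tumors. For glycolytic enzymes it was 7.42 to 7.76, 7.91 to 8.07 and 8.51 to 8.90. Nos2 was at 6.45, 7.40, 19.6, 2.19 and 8.69 CPM in 5-FU tumors, with ICB against 5-FU at 5.17 ± 0.60 (edgeR adjusted p = 0.000157). Of the T cell receptor complex 0 of 17, of the mitotic genes 0 of 20 and of the cytosolic ribosomal proteins 0 of 33 differed in this test, with medians of 1.07, -0.48 and 0.07, which does not show that they were alike. The T cell genes summed to 875 CPM in 5-FU 3 and 98.1 to 362 CPM in the other 5-FU tumors, against 348 to 1233 CPM in ICB tumors. Fibroblast and matrix genes were lower in ICB tumors for 10 of 23. Their mean log2 CPM was 7.97 to 8.81 in 5-FU, 7.03 to 7.83 in PBS and 6.90 to 8.31 in ICB tumors. Markers of adjoining tissue also differed between these tumors: skeletal muscle markers summed to 1020.1 to 1785 CPM in 5-FU 1, 3, 4 and 5 and to 10.1 CPM in 5-FU 2, against 1.98 to 335 CPM in ICB tumors other than ICB 3, and adipocyte markers to 254 to 503 CPM and 38.8 CPM, against 34.9 to 120 CPM. Their part in the lower matrix genes was not tested. The largest falls were those of Hsd11b2, which inactivates glucocorticoids (-5.97), the phosphate hormone gene Fgf23 (-4.78), the hyaluronan synthase gene Has1 (-3.73), the proteoglycan gene Kera (-3.61) and Greb1 (-3.46). Fgf23 was at 4.86, 1.52, 5.72, 5.26 and 11.4 CPM in 5-FU tumors, 0.0900 to 0.353 CPM in ICB tumors and 0.132 to 0.811 CPM in PBS tumors. The count of DEGs moved with single tumors, from 726 without 5-FU replicate 4 to 2263 without 5-FU replicate 3. It was 819 without ICB 2, 916 without ICB 5, 808 without 5-FU 1 and 962 without 5-FU 2, and Greb1 was not called without ICB 2 (-3.29), ICB 5 (-3.40) or 5-FU 5 (-2.84).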

How the data were processed

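The files hold gene-level estimated counts that the authors deposited: reads were pseudoaligned with kallisto 0.46.0 and summed to genes with tximport, with bcl2fastq 2.20.0.422 and the mouse build GRCm38 (mm10) named in the submitters' processing notes. Pseudoalignment assigns reads of near copies by estimate, and the values were rounded to whole counts here. edgeR 4.0.16 in R 4.3.3 was fitted to the 4 groups of the 5-FU matrix (19 tumors), with its own low-count filter, TMM factors and the quasi-likelihood test, and p-values were adjusted over all genes by Benjamini-Hochberg. Levels are counts scaled to TMM-adjusted library size (CPM), which are not comparable between genes. The labels name separate tumors but give no batch. The p-values rest on the spread within the 4 groups of the fit, in which tumors and libraries cannot be told apart. No 2 libraries were the same within sampling noise.

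Gene coordinates and transcript lengths are from GENCODE M21 on GRCm38, which matched 17894 of the tested genes by symbol. The script was tested on simulated data. The members and the 39 gene lists were chosen with earlier results of these data known, lists share some genes, and their counts are descriptions. Genes were named by rule: the 10 strongest rises and falls among DEGs with a mean of at least 50 counts and no overlap, the 4 members of each list with the smallest p, the antibody targets and their partners, and the 5 largest in each direction against 5-FU. Alternatives were DESeq2 1.42.0, other size factors, filters, thresholds and groups in the fit, a replicate block and leaving out tumors. Some members that the rule names are not reported here, and they remain in the counts and medians of their lists.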

Additional observations from a re-analysis of the deposited data

Results flagged for a closer look

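Among 410 groups of 4 or 5 tumors examined, 25 held 1 tumor far from the rest of its group by Dixon's criterion, where chance flags about 5% of groups. PBS 2 was high among PBS tumors for Ctla4 (7.55 CPM), Cd86 (20.8 CPM) and Cxcl9 (102 CPM), and for the mean log2 CPM of cytotoxic effectors (3.09), checkpoint and costimulatory receptors (3.21) and MHC class II genes (6.83).

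Other PBS tumors that stood apart were PBS 1 for Cd274 (9.94 CPM) and Wt1 (0 CPM), PBS 3 for Ikzf4 (1.28 CPM), Cxcr3 (1.58 CPM), Krt14 (0.0329 CPM) and the mean log2 CPM of p53 targets (5.95) and keratinocyte markers (-2.27), and PBS 4 for Ly6i (0.221 CPM) and Gbp9 (55.1 CPM).

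Among ICB tumors, ICB 2 stood apart for Gbp5 (398 CPM), Flt1 (70.5 CPM), Ndrg1 (289.6 CPM), C1ra (593 CPM) and Rpsa (1340.4 CPM). ICB 4 stood apart for Klrb1c (2.76 CPM) and H2-DMa (167 CPM), ICB 1 for Gas2 (34.2 CPM), and ICB 3 for 2610035D17Rik (0.194 CPM) and the mean log2 CPM of erythroid markers (4.69).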

How the results depend on the processing

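Of the 152 named genes called in ICB against PBS, 110 were still called without PBS 1 and 2, 131 without ICB 2 and 3, and 150 of 151 with DESeq2. The 6771 DEGs of ICB against PBS became 3594 (2051 higher, 1543 lower) without ICB 2 and 3, 2192 (1451 higher, 741 lower) without PBS 1 and 2, and 3816 (1185 lower) at an absolute log2 fold change over 1, and 1900 were lower in the cisplatin matrix. Leaving out 1 tumor gave 5176 to 7083. The 1535 DEGs against 5-FU became 2311 (863 lower) with DESeq2, 2316 (995 lower) with only the groups compared, and 882 (615 higher, 267 lower) at the higher threshold, and 328 were lower without the filter. Leaving out 1 tumor gave 726 to 2263 in all, 506 to 1667 higher and 220.0 to 596 lower. Signs turned for some genes that were not called, Mki67 (0.07), Cenpe (0.02), Cenpf (0.09), Gapdh (0.03), Canx (0.03), Ifit1 (-0.16) and Cfd (-3.36) without ICB 2 and 3, and Capg (0.35), Ldha (0.04), Car9 (0.28) and Hspa5 (0.20) without PBS 1 and 2. They also turned for Myh4 (-2.15 without ICB 2 and 3, and -0.21 to 4.50 leaving out 1 tumor, ICB 3 the lowest), Krt14 (-6.12 without ICB 2 and 3), other muscle and keratinocyte markers without ICB 2 and 3, among them the DEGs Dsg3 (-4.35) and Dsp (-0.54), and Cd80 (0.21 without PBS 1 and 2, and -0.24 to 0.060 leaving out 1 tumor). Apart from the sets with fewer tumors, the cause was not tested.

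The replicate numbers did not pair the tumors (correlations from -0.09 to 0.05), and with the replicate number as a block 6046 genes were DEGs (3020.0 higher, 3026 lower), and 1403 against 5-FU. Genes with few counts, such as Cd5l, have fold changes that depend on the prior count.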

Other observations

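Gene families outside the lists were described after their values were seen. Over all genes 19% were higher and 18.8% lower. These shares were 7.66% and 3.91% without PBS 1 and 2, and 11.3% and 8.49% without ICB 2 and 3. All 12 tested Toll-like receptor genes, sensors of microbial molecules on myeloid cells, were higher DEGs in ICB than in PBS tumors, with a median log2 fold change of 2.06, and 10 of 12 without PBS 1 and 2 (median 2.23) and 11 without ICB 2 and 3. Of 7 Schlafen genes, several of them interferon-induced, 4 were higher, and 3 without PBS 1 and 2 or without ICB 2 and 3. The core proteasome beta subunits (Psmb genes) split: 3 of 10 were higher, the immunoproteasome genes named in the report, and 6 lower, or 3 higher and 1 lower without PBS 1 and 2 and also without ICB 2 and 3. Of the 8 alpha subunits 3 were lower, and 0 without PBS 1 and 2 (median 0.02) or without ICB 2 and 3 (median -0.32).

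Nuclear genes of mitochondrial ribosomal proteins were lower in 67 of 80, with a median of -0.73, in 22 without PBS 1 and 2 (median -0.40) and in 51 without ICB 2 and 3 (median -0.66). The 13 protein genes of the mitochondrial genome had a median of 0.91, with 4 higher DEGs, and 0 without PBS 1 and 2 (median 0.90) or without ICB 2 and 3 (median 0.93). Of 31 homeobox cluster genes 11 were lower (median -0.77), 1 without PBS 1 and 2 (median -0.84) and 0 without ICB 2 and 3 (median -0.50). Of 23 replication-dependent histone genes, whose transcripts mostly lack a poly(A) tail, 10 were lower, 0 without PBS 1 and 2 and 3 without ICB 2 and 3. Of 13 S100 genes 1 was higher and 6 lower, 2 and 1 without PBS 1 and 2, and 1 and 5 without ICB 2 and 3.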
